A study of Mus musculus with 12 samples.

Results

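The phase II conjugation enzymes of the mouse kidney were followed by mRNA sequencing in 12 kidneys. Genes were taken by symbol: glutathione S-transferases (Gst) and the microsomal Mgst, UDP-glucuronosyltransferases (Ugt), sulfotransferases (Sult), epoxide hydrolases (Ephx) and symbols that begin with Aldh1. Of the 23420 genes in the count table, 75 symbols matched, and the 39 that had at least 10 counts in at least 4 kidneys are the members described here. The symbol rule also takes Aldh16a1 and Aldh18a1, which are not of the ALDH1 family; Aldh18a1 encodes an enzyme of proline synthesis. Of the other 36 symbols, 21 were at 0 counts in every kidney, among them all 7 Sult2a genes, and the remaining 15 never exceeded 84 counts.

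All kidneys came from male C57BL/6J mice. There were 4 controls and 8 ischemic kidneys, 4 mice being given for each of the 3 groups, and the labels carry an ischemia of 20 min and an interval of 24 h on every sample, controls included. By the methods given for these mice, controls are normal kidneys from nephrectomy, and ischemia was made with a clamp around the renal pedicle whose thread hung outside the skin. It was closed either under ketamine and xylazine or in conscious mice, which had a short isoflurane sedation for the closure. For the ischemic kidneys the sample title says one state and the group label the other. They are therefore called set A (4 kidneys titled as anaesthetised but grouped as conscious) and set B (4 titled as conscious but grouped as anaesthetised), and no difference between the sets is assigned to anaesthesia. No sham-operated kidneys were analysed here, so an effect of the surgery and an effect of ischemia cannot be told apart.

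Phase II enzymes attach a polar group to drugs, toxins and lipid products so that they can be exported into urine or bile. Glutathione S-transferases couple glutathione to electrophiles, UDP-glucuronosyltransferases add a sugar to alcohols, acids and amines, and sulfotransferases add a sulfate. Epoxide hydrolases open epoxides with water and aldehyde dehydrogenases oxidise aldehydes to acids. These enzymes do not conjugate and are included by the symbol rule. In the kidney much of this work is done by the proximal tubule, which takes up organic anions from blood.

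Total counts per kidney lay between 15367342 and 44793350, with a median of 32884590 in controls, 27158370 for set A and 18181498 for set B. Set B replicate 4 was the shallowest library and had the lowest summed level of the members. The members held 0.113 to 0.282% of all counts. Levels are given as CPM, the usual per-library share of counts after TMM scaling of the library sizes, and a difference is a log2 fold change with its standard error by the quasi-likelihood test of edgeR. The p-values were adjusted by Benjamini-Hochberg over the 11664 genes tested, and the threshold was 0.05. Low genes were often counted in some kidneys and absent in others of the same group. Of the 39 members, 22 had 0 counts in at least 1 kidney, and a count of 1 to 9 was held by 1.74 to 3.98% of the genes with any count in a kidney, against 20.2 to 31.5% with 10 to 100 counts.

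In set A against control, 13 of the 39 members passed the test (33.3%, against 22.3% of all genes tested), 4 higher and 9 lower. In set B against control, 14 passed (35.9%, against 22.8% of all genes), 4 higher and 10 lower. The share of members that rose, 10.3% in both sets, was close to that of all genes, 10.5% for set A and 10.9% for set B. Some of these rises met the count rule only with the ischemic kidneys, as given below, so this share is not independent of the rule. The share that fell was 23.1% in set A, where 11.7% of all genes fell, and 25.6% in set B, where the figure for all genes was 11.9%. The median log2 fold change of the members was -0.35 for set A and -0.71 for set B, while the median over all genes was -0.02 in both. With members at or under 3 counts in every kidney of a group set to their bound, the medians were -0.35 and -0.65. Both comparisons share the same 4 control kidneys.

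Aldh18a1, Aldh1a2, Gsta1 and Gsta2 rose in both sets. Aldh1l1, Ephx2, Gstt2, Ugt1a7c, Ugt2b38, Ugt3a1, Ugt3a2 and Ugt8a fell in both. Among the rises, Gsta1, Aldh18a1 and Aldh1a2 had at least 10 counts in 0, 2 and 3 control kidneys. These genes met the count rule only with the ischemic kidneys, so their place among the rises is not independent of it. Ugt2b34 passed the test in set A only and Gstm1 and Gstm7 in set B only, and 24 members passed in neither. The 24 were mostly low, with a median control level of 1.54 CPM and a median standard error of 1.56, against 28.1 CPM and 0.57 for the 15 members that passed at least once. For the low ones a p above the threshold says little. Gstm2, Gsta3 and Gstm5 were abundant, with standard errors of 0.26 to 0.31. Their p does not show an absence of change either, and Gsta3 and Gstm2 in set B are taken up below.

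**Figure D1:**
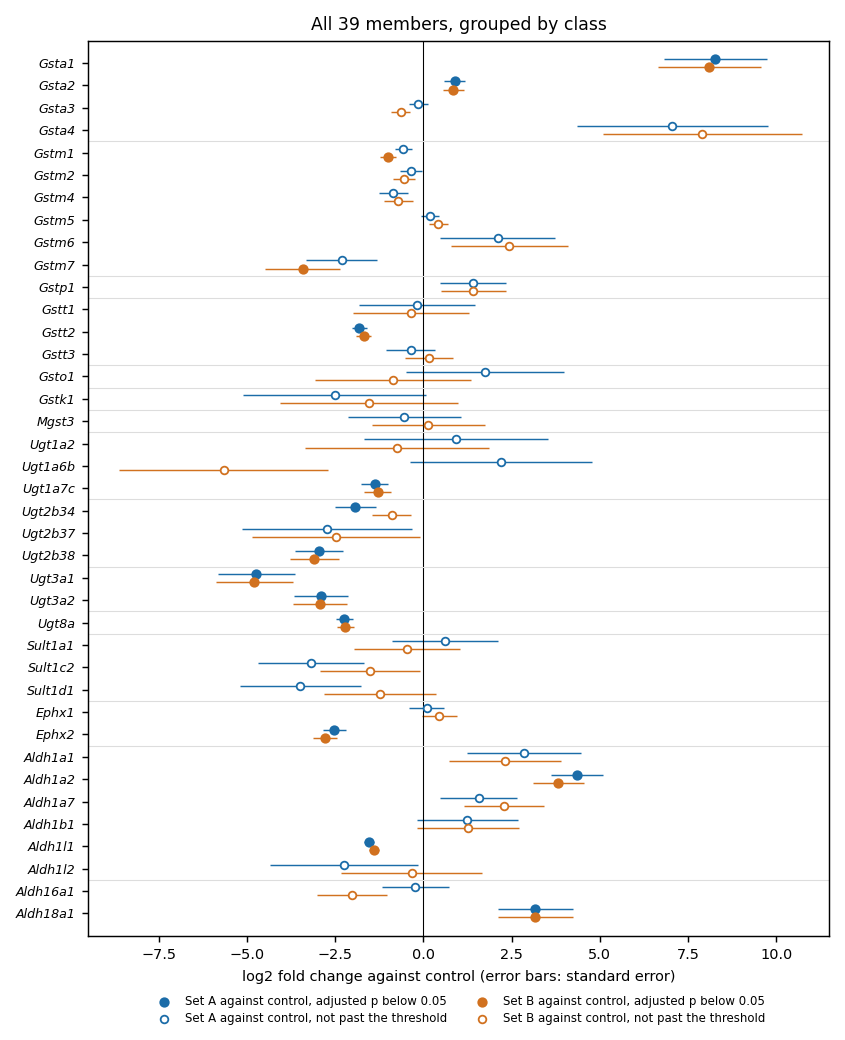
Log2 fold change of each of the 39 members against control (x axis) in set A (blue) and set B (orange), with bars of 1 standard error and filled points for an adjusted p below 0.05. The 9 UGT members lie mostly left of 0 and the short bars belong to abundant members; the values of Gsta1, Gsta4 and, in set B, Ugt1a6b rest on a group at or near 0 counts and depend on the prior count of the fit.

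The members' summed level was 2687 ± 57.1 CPM in controls (SD, n = 4), 1607 ± 388 for set A and 1454 ± 237 for set B, and no ischemic kidney reached the lowest control kidney, at 2615 CPM. The classes did not share this loss equally. The 9 UGT members together stood at 520.5 ± 39.6 CPM in controls, 108 ± 21.9 for set A and 112 ± 40.3 for set B, so that their part of the members' total went from 19.4 ± 1.61% to 6.83 ± 0.81% and 7.51 ± 1.89%. The 4 alpha-class GST members together went the other way, with 208 ± 31.5 CPM in controls, 364 ± 124 for set A and 348 ± 148 for set B, which is 7.73 ± 1.09%, 22.3 ± 3.05% and 23.1 ± 7.27% of the total. Set B replicate 4, at 145 CPM, lay below the control range of 180 to 251 CPM, set A replicate 1 lay inside it at 229 CPM, and the other 6 ischemic kidneys lay above it. These sums follow a few abundant genes, named below, and in bulk tissue fewer cells of a type and less RNA per cell cannot be told apart. Aldh1l1, of folate metabolism, held 22.9% of the members' total in controls. Ugt8a, which acts on ceramide, held 14.8%. The sums are therefore no measure of drug conjugation.

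**Figure D2:**
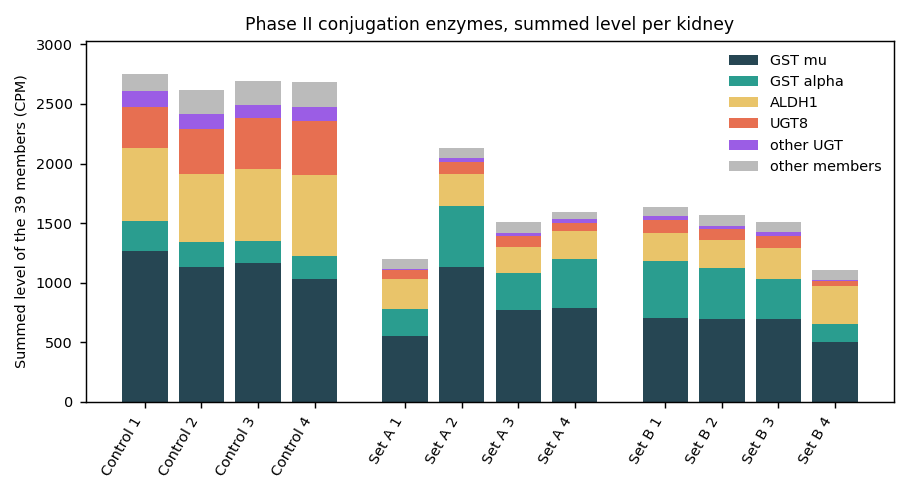
Summed CPM of the 39 members in each kidney (y axis, stacked by class; 1 bar per kidney, 4 kidneys per group). The controls reach 2615 to 2755 CPM and the ischemic kidneys 1106 to 2130 CPM, with a thinner UGT8 layer and, in most of them, a thicker GST alpha layer.

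Markers of the proximal tubule moved with these results. All 12 of the 12 listed markers fell in both sets, and their summed level was 7544 to 8399 CPM in controls, 815 to 1519 for set A and 504 to 1571 for set B. Of 4 fibroblast markers, 2 (Col1a1 and Col1a2) were higher in both sets, with sums of 481 to 623 CPM in controls, 945 to 2651 for set A and 1138 to 2394 for set B. Of 4 podocyte markers, 2 were higher in both sets and 0 lower (sums of 118 to 135, 134 to 252 and 161 to 230 CPM). Over all genes tested, 10.5% were higher and 11.7% lower in set A, and 10.9% and 11.9% in set B. The counts of all marker lists here stand against these shares. Of 4 markers of the thick ascending limb, 1 (Slc12a1) was lower in both sets, and the list's sum was 1628 to 1714 CPM in controls, 285 to 391.8 for set A and 269 to 779 for set B. Of 3 tested macrophage markers, 1 (Csf1r) was lower in both sets, with sums of 43.6 to 66.7, 9.42 to 26 and 12.7 to 33.3 CPM. Among the other kidney lists, 0 of 3 markers of the distal convoluted tubule passed in set A and 1 was lower in set B, 1 of 6 of the collecting duct was lower in both, and 0 of 4 tested of endothelium passed. Neutrophil markers summed to at most 0.441 CPM, with S100a8 and Retnlg at 0 in every kidney, and Hba-a1 and Hba-a2 of blood, Adipoq, Plin1 and Cfd of fat and Cyp11b1, Cyp11b2 and Cyp21a1 of the adrenal gland were also at 0. The blood marker Alas2 had 33, 46, 144 and 55 counts in controls, 0, 0, 26 and 5 for set A and 0, 0, 0 and 0 for set B, and was lower in set B (adjusted p = 0.0266 in edgeR). The fat marker Fabp4 had 0, 145, 11 and 0 counts in controls, 0, 0, 29 and 23 for set A and 11, 0, 43 and 0 for set B, and did not pass. Among liver markers Apoa1 was at 0 and Alb at a mean of at most 0.109 CPM in a group, while Apob and Cyp2e1, which the kidney expresses too, were lower in both sets. The part of these cell types in the members' changes was not tested.

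Per kilobase of exon, which allows genes to be compared, Gstm1 was the most abundant member in controls, at 617 ± 52.8 CPM per kb (SD, n = 4). Gsta2 followed at 154 ± 25.2 and Aldh1l1 at 136 ± 11.1, and the ranges of these 2 overlapped. Gstm2 (88.2 ± 12.5) and Ugt8a (87.8 ± 10.6) came next with overlapping ranges, then Gstm5 (44.6 ± 5.46), Gstt2 (23.8 ± 5.08) and Ephx2 (20.4 ± 4.8), of which the last 2 overlapped. From Gstt2 downwards each member overlapped the next in the order, apart from Gsta3, and 24 members stood under 4 CPM per kb. After ischemia Gstm1 and Gsta2 kept the first and second ranks by group mean in both sets, at 416 and 285 CPM per kb for set A and 308 and 277 for set B. The ranges of these 2 overlapped in each set. Aldh1a2 went from rank 29 in controls to 7 for set A and 8 for set B, Gsta1 from 38 to 12 and 13, and Ugt3a1 from 13 to 35 and 32.

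The alpha-class transferases conjugate electrophiles such as products of lipid peroxidation and bind bilirubin and steroids. Gsta1 and Gsta2 are neighbours on chromosome 9 of mm10, at 78230656 to 78242684 on the plus strand and 78331018 to 78355788 on the minus strand. Their promoters are shown because these near copies had very different control levels. Each is 250 bases before the RefSeq start and 3 after it (GRCm38.p6), 5′ to 3′, with the xenobiotic response element core GCGTG in capitals, Gsta1 at chr9:78230419-78230671 on the plus strand and Gsta2 at chr9:78347143-78347395 on the minus strand, inside the longer gene of GENCODE.
Gsta1: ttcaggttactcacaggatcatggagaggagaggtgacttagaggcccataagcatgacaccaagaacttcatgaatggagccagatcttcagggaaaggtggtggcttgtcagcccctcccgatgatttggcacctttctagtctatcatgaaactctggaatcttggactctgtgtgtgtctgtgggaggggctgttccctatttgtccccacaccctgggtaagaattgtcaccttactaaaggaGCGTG
Gsta2: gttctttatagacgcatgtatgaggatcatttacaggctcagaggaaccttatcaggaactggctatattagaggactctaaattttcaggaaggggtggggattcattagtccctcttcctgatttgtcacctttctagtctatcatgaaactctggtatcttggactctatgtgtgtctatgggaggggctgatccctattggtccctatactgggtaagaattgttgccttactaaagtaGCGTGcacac
Aligned to each other, these stretches were 77.3% identical, with 187 identical and 55 mismatched bases. A further 22 gap bases are left out of the percentage. Both hold GCGTG across or next to the start, a short motif that 32.4% of all 32851 promoters and 10 of the 33 members with a promoter in the table hold on either strand, and neither holds the antioxidant response element TGACNNNGC. A match is a match of letters only.

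Gsta1 was all but absent from controls, with counts of 0, 0, 1 and 0 in replicates 1 to 4, and had 76, 53, 168 and 135 counts for set A and 53, 32, 139 and 64 for set B. Every ischemic kidney lay above every control. In CPM Gsta1 was at 4.13 ± 2.75 for set A and 3.65 ± 2.29 for set B (SD, n = 4), with adjusted p of 2.76e-04 and 3.29e-04. Since the controls held 1 count in all, the ratio of summed counts to controls was 457 for set A (95% exact interval 81.5 to 18074) and 434 for set B (77.3 to 17208), and these intervals cover counting error only. Leaving out control replicate 3, which held the single control read, moved the fitted log2 fold change from 8.27 to 9.79 for set A and from 8.09 to 9.61 for set B. Since Gsta1 had no control kidney with 10 counts, it became a member through the ischemic kidneys alone, so its place among the members that rose is not independent of the rule.

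Gsta2, by contrast, was abundant throughout, at 220.1, 188, 153 and 163 CPM in control replicates 1 to 4, 209, 490.0, 267 and 377 for set A and 466, 403, 312 and 125 for set B. The groups overlapped: set A replicate 1 and set B replicate 4 lay below the highest control, and the other 6 ischemic kidneys lay above it. Gsta2 was 1.85-fold higher in set A (adjusted p = 0.0353) and 1.8-fold higher in set B (adjusted p = 0.0437), and the exact permutation test of CPM gave two-sided p = 0.0571 and 0.143. These calls were not firm. In set A the adjusted p was 0.0693, 0.103 and 0.0906 without control replicates 2, 3 and 4, and 0.148 and 0.0921 without set A replicates 2 and 4. In set B it lay between 0.0503 and 0.168 without any 1 of the 4 controls, set A replicates 3 or 4, or set B replicates 1, 2 or 3, and was 0.0541 in DESeq2 and 0.0545 with only the 2 groups compared.

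Gsta1 and Gsta2 are near copies of each other and of Gm3776 and Gm10639. Of the 100-base stretches of the Gsta1 transcript, the length of the reads, 80.6% also occur in these other genes, and 28.4% of those of Gsta2 do, so reads may have been split among them or left uncounted. Gm3776 had 1, 0, 0 and 1 counts in controls, 353, 405, 821 and 191 for set A and 301, 214, 156 and 18 for set B, and it rose in both (adjusted p = 4.61e-07 and 1.30e-06 from edgeR). Gm10639 rose as well, from 1.63 ± 0.86 CPM in controls to 11 ± 5.99 for set A and 9.95 ± 7.22 for set B (adjusted p = 0.0129 and 0.0176 from edgeR). In set B replicate 4, however, Gm10639 was at 0.508 CPM, below every control. The counts of Gsta1 were 0 to 0.0252% of those of Gsta2 in controls, 0.463 to 2.16% for set A and 0.384 to 3.25% for set B, so the ratio of these 2 copies within a library was higher in every ischemic kidney than in any control. All 4 copies summed to 183 ± 28.9 CPM in controls, 365 ± 127 for set A and 348 ± 158 for set B.

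The other alpha members were Gsta3 and Gsta4. Gsta3 stood at 26.5 ± 3.07 CPM in controls, 23.9 ± 7.99 for set A and 17 ± 2.66 for set B, with adjusted p of 0.813 and 0.103 in edgeR. All kidneys of set B, at 13.5 to 19.2 CPM, lay under the lowest control, at 23.3 CPM, as in 15.1% of all genes tested. Gsta4, which acts on hydroxynonenal, had 0 counts in all 4 controls and in 1 kidney of each set, and its highest count was 45. Like Gsta1 it is a member through the ischemic kidneys alone, so its level there is no independent sign of a rise. The adjusted p was 0.0755 and 0.055 in edgeR, which did not pass, and 0.0226 and 0.00764 in DESeq2. In edgeR it passed in set B without set A replicate 2 (0.0491) or set B replicate 3 (0.0477).

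**Figure D3:**
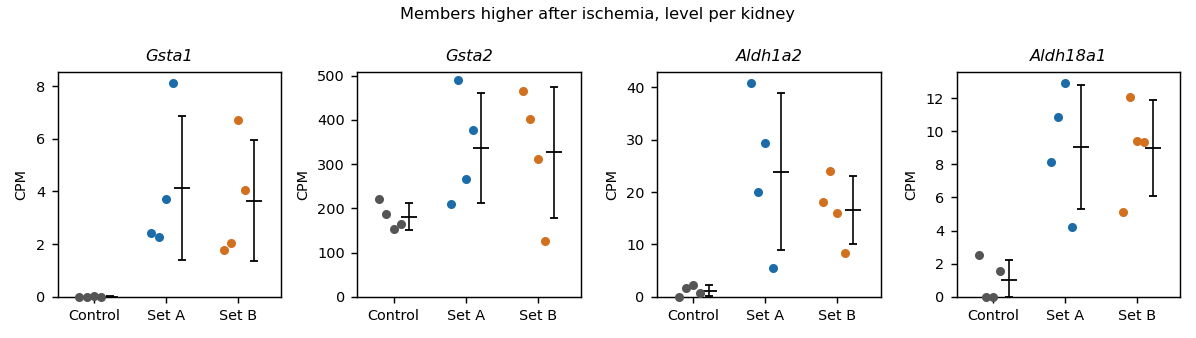
CPM (y axis) of the 4 members that rose in both sets, with 1 point per kidney and the mean ± SD beside it (n = 4; the lower bar stops at 0). Gsta1, Aldh1a2 and Aldh18a1 separate all ischemic from all control kidneys, and Gsta2 overlaps, with set B replicate 4 at 125 CPM below every control. Of all genes tested, 12.6% in set A and 11.6% in set B lay wholly above the controls.

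Aldh1a2 (chromosome 9, 71215789 to 71296243) makes retinoic acid from retinal and is known from the embryonic kidney. It was measured at 0.048, 1.61, 2.32 and 0.68 CPM in control replicates 1 to 4, 40.9, 19.9, 29.4 and 5.42 for set A and 18.2, 24, 16 and 8.32 for set B. No ischemic kidney overlapped the controls, and the lowest were replicate 4 of each set. The log2 fold change was 4.35 ± 0.73 (standard error) for set A and 3.82 ± 0.71 for set B, that is 20.3-fold and 14.1-fold higher, with adjusted p of 1.59e-04 and 4.66e-04. It remained past the threshold in all 17 alternative settings in both sets. Its promoter is shown because it is the member promoter that holds both a TGACNNNGC and a GCGTG match and belongs to a gene that rose. It lies at chr9:71215539-71215791 on the plus strand (GRCm38.p6), with the matches in capitals.
Aldh1a2: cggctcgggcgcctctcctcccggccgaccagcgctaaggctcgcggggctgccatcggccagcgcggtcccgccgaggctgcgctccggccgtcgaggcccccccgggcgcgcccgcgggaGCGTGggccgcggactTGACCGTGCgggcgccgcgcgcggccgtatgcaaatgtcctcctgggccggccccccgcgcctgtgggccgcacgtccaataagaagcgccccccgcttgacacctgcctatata
The TGACNNNGC match begins 112 bases before the start and the GCGTG match 128 bases before it. TGACNNNGC was found in 12.4% of all promoters of this length and in those of 4 of the 33 members with a promoter in the table (Aldh1a2, Gsta3, Gstm5 and Gstm7). The matches in Aldh1a2 do not overlap. Of these members Aldh1a2 rose in both sets, Gstm7 fell in set B and the others did not pass.

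Aldh18a1 stood at 2.49, 0, 0 and 1.54 CPM in controls, 8.16, 10.9, 12.9 and 4.22 for set A and 5.12, 12.1, 9.43 and 9.33 for set B, and the groups did not overlap. The log2 fold change was 3.17 ± 1.06 for set A and 3.16 ± 1.06 for set B (adjusted p = 0.0367 and 0.037). This is close to the threshold. With only the 2 groups compared the adjusted p was 0.0653 and 0.103. In set A it rose to between 0.0545 and 0.0979 without control replicates 3 or 4, set A replicates 1, 2 or 3, or set B replicate 2. In set B it was between 0.0503 and 0.085 without control replicates 2, 3 or 4, set A replicates 1, 2 or 3, or set B replicates 2 or 3. Without control replicate 1 the log2 fold change was 4.11 for set A and 4.08 for set B.

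Aldh1l1, the cytosolic dehydrogenase of formyl-tetrahydrofolate, was the most abundant aldehyde dehydrogenase here. It had 615, 559, 606 and 681 CPM in control replicates 1 to 4, 202, 236, 181 and 228 for set A and 206, 205, 223 and 307 for set B. All 8 ischemic kidneys lay well below the lowest control. The fall was 2.91-fold for set A and 2.61-fold for set B (log2 fold change -1.54 ± 0.14 and -1.39 ± 0.14, adjusted p = 1.22e-07 and 4.67e-07). The other 4 ALDH1 members, Aldh1a1, Aldh1a7, Aldh1b1 and the mitochondrial Aldh1l2, had group means between 0.286 and 3.82 CPM and passed in neither set. Aldh1a1, at 0.384 ± 0.516 CPM in controls, 2.82 ± 1.06 for set A and 1.95 ± 1.45 for set B, had adjusted p of 0.252 and 0.36. Aldh1a7 passed in set B in DESeq2 (adjusted p = 0.0352) and not in edgeR (adjusted p = 0.168). Aldh16a1 had 5.57 ± 3.02, 4.73 ± 2.32 and 1.35 ± 1.15 CPM (adjusted p = 0.926 and 0.164).

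The mu class held the largest amount of transferase mRNA, led by Gstm1 (chromosome 3, 108012255 to 108017973). Gstm1 stood at 1001, 894, 927 and 813 CPM in control replicates 1 to 4, 394, 951, 577 and 527 for set A and 496, 513, 561 and 244 for set B. All kidneys of set B lay below the controls, whereas set A replicate 2 lay among them. The fall in set B was 2-fold (log2 fold change -1.0 ± 0.24, adjusted p = 0.00347) and it held in all 17 alternatives. In set A the log2 fold change was -0.57 ± 0.23 with adjusted p = 0.0928. There Gstm1 passed without set A replicate 2 (0.00625), without set B replicate 4 (0.0224) and with no filter on low counts (0.0352), so that its absence from the calls in set A rests on the setting. Between the sets it was -0.43 ± 0.23 (unadjusted p = 0.0788 in edgeR's quasi-likelihood test), so a difference between them was not shown.

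Gstm7, a low mu-class member, had 18.9, 12.9, 12.1 and 13.4 CPM in controls, 0.921, 1.58, 5.33 and 3.61 for set A and 3.71, 0, 1.5 and 0 for set B, with no overlap between ischemic and control kidneys. It passed in set B (log2 fold change -3.42 ± 1.06, adjusted p = 0.0241) and not in set A (-2.32 ± 1.01, adjusted p = 0.117), and the sets differed by -1.11 ± 0.99 with an unadjusted p of 0.277 in edgeR. Without control replicates 1 or 4 the call in set B was lost, at adjusted p of 0.0675 and 0.0506, and without set B replicate 1 the log2 fold change was -4.80. In set A Gstm7 passed without set B replicate 4 (adjusted p = 0.0445) and in a fit of set A and controls alone (0.00456). Gstm2 stood at 148 ± 21 CPM in controls, 116 ± 43.3 for set A and 102 ± 67.4 for set B, where replicate 4 was the highest at 201 CPM. Without that kidney Gstm2 passed in set B, at adjusted p = 8.99e-04, whereas with it the value was 0.256. Gstm5, the mu member of brain and testis, had 57.1 ± 6.98, 64.7 ± 16.5 and 76.5 ± 35.7 CPM and did not pass. Gstm4 was at 20.1 ± 5.55, 11.1 ± 5.58 and 12.2 ± 4.68 CPM, Gstm6 at means of 0.784, 3.38 and 4.27 CPM, and neither passed in either set.

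Of the theta class, Gstt2 was the leading member, with 71.9, 98.7, 102 and 123 CPM in controls, 30.2, 31.9, 29.3 and 21 for set A and 31, 25.7, 35.7 and 30.5 for set B. The highest ischemic kidney, at 35.7 CPM, was under the lowest control, at 71.9 CPM. The fall was 3.52-fold and 3.22-fold (log2 fold change -1.82 ± 0.21 and -1.69 ± 0.21, adjusted p = 1.91e-06 and 4.86e-06). Gstt1 and Gstt3 stood at 1.6 ± 0.782 and 6.12 ± 1.34 CPM in controls and at means of 1.26 to 6.82 CPM in the ischemic sets, and passed in neither.

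The single members of the pi, omega, kappa and microsomal classes were all low. Gstp1 had 1.44, 2.68, 6.14 and 0 CPM in controls, 3.9, 8.77, 10.2 and 4.34 for set A and 6.47, 8.1, 7.69 and 5.14 for set B (adjusted p = 0.343 and 0.334), and 25.1% of its 100-base stretches are shared with Gstp2 and a pseudogene. Gsto1, which reduces arsenicals and dehydroascorbate, had counts of 0, 0, 85 and 0 in controls, 73, 100, 199 and 0 for set A and 1, 28, 0 and 0 for set B. The peroxisomal and mitochondrial Gstk1 had counts of 49, 21, 0 and 36 in controls, 0, 0, 29 and 0 for set A and 0, 0, 27 and 0 for set B. Both were at 0 in some kidneys and well counted in others of the same group. Mgst3, a membrane enzyme of leukotriene and lipid hydroperoxide metabolism, had 3.26, 2.29, 1 and 2.4 CPM in controls, 0, 0, 4.74 and 1.39 for set A and 1.95, 3.67, 0 and 4.25 for set B. Gsto1, Gstk1 and Mgst3 passed in neither set, with adjusted p from 0.61 to 0.977. Mgst1, just outside the members, had 10 counts in 3 kidneys and at most 70, while Ugt1a2 and Ugt1a6b, just inside, had 10 counts in exactly 4.

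Of the 9 UGT members, 5 fell in both sets, 1 fell in set A only and 3 passed in neither, where 11.7% and 11.9% of all genes were lower in the sets. Ugt3a1 and Ugt3a2 are neighbours on chromosome 15 (9276888 to 9315032 and 9335550 to 9370955) and encode the UGT family that uses sugars other than glucuronic acid. Ugt3a1 had 19.8, 24.4, 23.3 and 24.7 CPM in control replicates 1 to 4, 0.0317, 0.942, 0.485 and 2.11 for set A and 1.62, 1.65, 0 and 0 for set B. The highest ischemic kidney, at 2.11 CPM, was far below the lowest control. The log2 fold change was -4.73 ± 1.09 for set A and -4.80 ± 1.09 for set B, a 26.6-fold and 27.8-fold fall (adjusted p = 0.00291 and 0.00273), and it was -5.60 without set A replicate 4 and -5.43 without set B replicate 1.

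Ugt3a2 had 36.5, 25.6, 28.6 and 27.7 CPM in controls, 2.67, 8.47, 1.48 and 3.31 for set A and 4.48, 4.3, 6.58 and 0 for set B. Here too no ischemic kidney reached the controls, and the highest was set A replicate 2. The log2 fold change was -2.90 ± 0.76 and -2.94 ± 0.76 (adjusted p = 0.00819 and 0.0075), and -3.58 in set A without replicate 2. Ugt3a1 and Ugt3a2 share no 100-base stretch with another gene.

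Ugt8a (chromosome 3, 125865271 to 125938619), which adds galactose to ceramide on the way to sulfatide, was the most abundant UGT member. It stood at 340.3, 381, 422 and 450.1 CPM in control replicates 1 to 4, 72.5, 103, 97.6 and 62.8 for set A and 109.7, 86, 106 and 42.5 for set B. The highest ischemic kidney, at 109.7 CPM, was far below the lowest control, at 340.3 CPM. The fall was 4.74-fold and 4.62-fold (log2 fold change -2.24 ± 0.24 and -2.21 ± 0.24, adjusted p = 6.06e-07 and 8.01e-07). Ugt8a made up 14.8 ± 1.88% of the members' summed CPM in controls and 5.33 ± 1.16% and 5.77 ± 1.46% in the sets.

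Ugt2b38, of the steroid and drug glucuronidating UGT2 family, had 32.7, 22.1, 35.1 and 22.5 CPM in controls, 0.603, 6.46, 0.419 and 7.23 for set A and 2.93, 3.8, 3.05 and 3.43 for set B. The groups did not overlap, and set A spread more widely than set B. The log2 fold change was -2.95 ± 0.68 and -3.09 ± 0.69 (adjusted p = 0.00305 and 0.00224), and 24.2% of its 100-base stretches also occur in Ugt2b5 or Ugt2b37. Ugt2b34 had 16.5, 8.94, 10.4 and 10.5 CPM in controls, 0.889, 4.41, 4.45 and 2.41 for set A and 6.37, 5.63, 9.53 and 3.3 for set B, where replicate 3 lay among the controls. It passed in set A (log2 fold change -1.93 ± 0.57, adjusted p = 0.0186) and not in set B (-0.90 ± 0.56, adjusted p = 0.3), and the difference between the sets, 1.03 ± 0.56, had an unadjusted p of 0.0817 in edgeR. The call in set A was lost without control replicate 1 and set A replicates 1 and 4, at adjusted p of 0.0852, 0.059 and 0.0502. Ugt2b37 stayed at or under 1.67 CPM and did not pass.

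The UGT1 genes share their last exons, so 100-base stretches of these transcripts also occur in other UGT1 genes (51.6% for Ugt1a7c, 62.9% for Ugt1a2 and 70.9% for Ugt1a6b), and their counts are uncertain. Ugt1a7c was the leading one, with 27.4, 42.2, 15 and 27.7 CPM in controls, 8.7, 12.5, 7.84 and 14.3 for set A and 15.7, 12.5, 11.9 and 5.46 for set B. Set B replicate 1 lay above the lowest control and the other ischemic kidneys below it. The log2 fold change was -1.38 ± 0.38 and -1.30 ± 0.38 (adjusted p = 0.0117 and 0.0173), and without control replicate 2, its highest, the adjusted p was 0.0729 and 0.0961. Ugt1a6b had counts of 0, 0, 24 and 0 in controls, 33, 0, 41 and 39 for set A and 0, 0, 0 and 0 for set B, and did not pass. Ugt1a2, with 0, 0, 0 and 62 counts in controls, 16, 0, 117 and 0 for set A and 28, 0, 0 and 0 for set B, did not pass either.

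**Figure D4:**
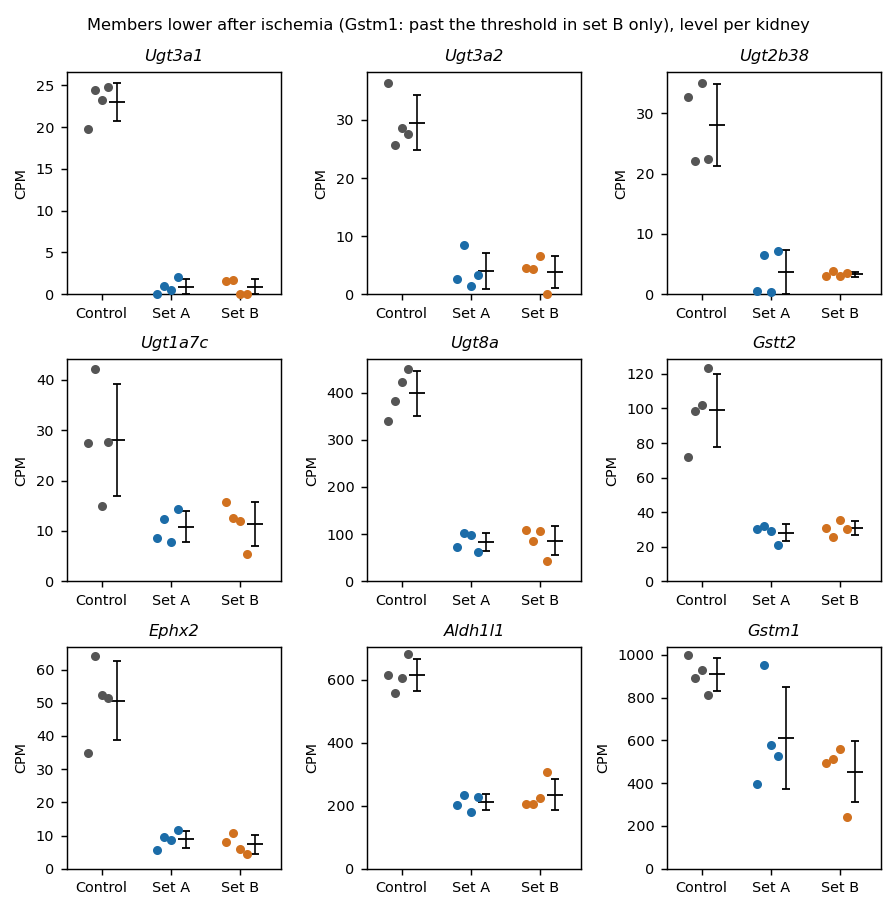
CPM (y axis, from 0) of 9 members that fell, 8 in both sets and Gstm1 in set B only, with 1 point per kidney and the mean ± SD beside it (n = 4; the lower bar stops at 0). All ischemic kidneys lie under the lowest control in 7 panels. The exceptions are Ugt1a7c, with set B replicate 1 at 15.7 CPM, and Gstm1, with set A replicate 2 at 951 CPM. The panels were chosen as members called lower. Of all genes tested, 15.7% in set A and 15.1% in set B lay wholly under the controls.

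The epoxide hydrolases split. Ephx2, the soluble enzyme that inactivates epoxides of fatty acids, had 35, 64, 52.3 and 51.4 CPM in controls, 5.52, 9.5, 8.77 and 11.6 for set A and 8.15, 10.9, 5.9 and 4.51 for set B, without overlap. It fell 5.74-fold and 6.88-fold (log2 fold change -2.52 ± 0.33 and -2.78 ± 0.34, adjusted p = 1.00e-05 and 3.65e-06). Ephx1, the microsomal enzyme for epoxides of drugs and hydrocarbons, stood at 7.45 ± 2.41 CPM in controls, 7.93 ± 3.96 for set A and 10.2 ± 4.02 for set B. Its log2 fold change was 0.09 ± 0.50 and 0.45 ± 0.50, and it did not pass (adjusted p = 0.949 and 0.619).

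Sulfotransferases were scarce. Of 18 Sult symbols, 11 were never counted and 3 are members, with a summed level of 11.8 ± 3.02 CPM in controls, 3.33 ± 2.81 for set A and 4.96 ± 2.95 for set B. Sult1c2 led with 7.39, 2.91, 10.5 and 7.16 CPM in controls, 0, 1.11, 0 and 1.99 for set A and 2.16, 1.39, 0 and 6.29 for set B. Set A lay under every control and set B overlapped them, and neither comparison passed (log2 fold change -3.19 ± 1.51 and -1.51 ± 1.41, adjusted p = 0.154 and 0.545). Sult1d1, at 3.39 ± 2.1 CPM in controls, and Sult1a1, at 1.47 ± 0.784 CPM, did not pass either.

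Between the ischemia sets, 0 of the 39 members had an adjusted p below 0.05 in edgeR and 0 in DESeq2, where 1 gene of all those tested did in edgeR (0.00857%). At an unadjusted p below 0.05, 1 member was counted, against 5.03% of all genes. This was Ugt1a6b, at 0 counts in all of set B and at 1.05, 0, 0.903 and 2.35 CPM in set A (unadjusted p = 0.0303, adjusted p = 0.96 in edgeR). The set A mean was 6.87-fold the set B floor of 3 counts per kidney, a ratio that leaves out the spread among kidneys. Ugt1a6b had at least 10 counts in 3 kidneys of set A, 1 control and 0 of set B. It is thus a member mainly through set A, and its difference is not independent of the rule. The count of members whose sets did not overlap was 0, against 1.29% of all genes higher and 1.32% lower in set B. Among the abundant members that passed against control, set B differed from set A, on the log2 scale, by -0.43 ± 0.23 for Gstm1, 0.15 ± 0.14 for Aldh1l1, 0.13 ± 0.20 for Gstt2, 0.04 ± 0.23 for Ugt8a, -0.26 ± 0.32 for Ephx2 and -0.04 ± 0.29 for Gsta2. For low members the standard error of this difference reached 3.3 in Ugt1a6b and 2.66 in Ugt1a2, so a sizeable difference would not have passed.

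Genes around the conjugation step were read from lists of related genes. Of the 66 that could be tested, 11 were higher and 25 lower in set A, and 10 higher and 26 lower in set B, with median log2 fold changes of -1.07 and -1.12 (-0.02 over all genes). Over all genes tested, 10.5% were higher and 11.7% lower in set A, and 10.9% and 11.9% in set B, and the counts of each list below stand against these shares. A gene in more than 1 list is counted once in these totals. In the supply of cofactors, 2 of 14 were higher in both sets, and 7 were lower for set A and 8 for set B. Papss2, which makes the sulfate donor, went from 308 ± 26.2 CPM in controls to 101 ± 10.4 for set A and 91.2 ± 38.5 for set B (adjusted p = 4.31e-05 and 1.77e-05). Glutathione synthetase Gss fell with log2 fold changes of -1.21 and -1.49 (adjusted p = 5.13e-04 and 6.66e-05), while Gclc, which catalyses the limiting step of glutathione synthesis, was at 613 ± 86, 584 ± 205 and 512 ± 191 CPM and did not pass (adjusted p = 0.901 and 0.497). G6pdx, which supplies NADPH, rose in both sets (log2 fold changes of 1.69 and 1.70, adjusted p = 6.12e-05 and 6.06e-05). Ugdh, which makes UDP-glucuronic acid for the UGT enzymes, also rose (log2 fold changes of 1.08 and 0.52, adjusted p = 1.60e-04 and 0.0427). In set B its call was lost on leaving out any 1 control, set A replicates 3 or 4, or set B replicates 1, 2 or 3, with adjusted p up to 0.211.

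Downstream of the glutathione transferases, 5 of 7 tested genes of the mercapturate pathway were lower in each set, 4 of them in both, and 0 higher. Ggt1, which removes glutamate from glutathione conjugates at the brush border, went from 1079.9 ± 58.6 CPM in controls to 237 ± 29.6 for set A and 208 ± 57.1 for set B (log2 fold change -2.19 ± 0.17 and -2.38 ± 0.17, adjusted p = 9.29e-09 and 3.56e-09). The aminoacylase Acy3 fell by more than Ggt1 in both sets, with log2 fold changes of -3.96 and -3.98 (adjusted p = 9.85e-06 and 1.02e-05). Of 6 pumps that export conjugates, 3 were higher in both sets (Abcc1, Abcc3 and Abcc5), and Abcg2 was lower in set A. Abcc1 had 12.1 ± 4, 27.9 ± 5.44 and 30.2 ± 13.9 CPM (adjusted p = 0.0112 and 0.00586), and Abcc2, the apical pump, stayed at 104 ± 19.1, 108 ± 25 and 90.0 ± 30.2 CPM without passing. The calls of Abcc3 were lost without any of control replicates 2, 3 and 4, set A replicates 1 and 4 or, in set B, set B replicate 3, with adjusted p of 0.0505 to 0.116, and that of Abcc5 in set A without control replicate 2 (0.0763) or set A replicate 4 (0.0664). Among deconjugating enzymes 2 of 7 were lower for set A and 4 for set B, among them the carboxylesterases Ces1d (log2 fold changes of -3.42 and -3.99) and Ces1f (-2.69 and -3.28).

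Of 19 tested enzymes of other conjugation and reduction steps, 3 were higher and 7 lower in set A, and 1 higher and 6 lower in set B. Acsm3, which activates acids for glycine conjugation, went from 455 ± 117 CPM to 16.3 ± 8.1 and 8.74 ± 4.2 (adjusted p = 8.92e-08 and 1.87e-08). Akr1b8, an aldo-keto reductase with 15 counts in all 4 controls together, rose from 0.101 ± 0.16 to 42.7 ± 10.5 and 33.6 ± 9.48 CPM (adjusted p = 3.71e-09 and 5.04e-09), while the abundant Akr1a1 fell from 1003 ± 82.3 to 313 ± 56.4 and 319.9 ± 48.9 CPM (adjusted p = 3.37e-08 and 4.65e-08). Of 9 genes known to respond to the oxidant-sensing factor NRF2, 5 were higher and 0 lower in set A, and 4 higher and 1 lower in set B. Slc7a11, the cystine transporter, had log2 fold changes of 5.17 ± 0.90 and 5.09 ± 0.90 (adjusted p = 2.35e-04 and 2.68e-04), and Txnrd1 of 1.76 ± 0.21 and 1.38 ± 0.21 (adjusted p = 2.87e-06 and 4.75e-05). The gene lower in set B was Gclm (-0.82, adjusted p = 0.00295). Among 8 tested regulators 0 were higher and 3 lower in set A, and 1 higher and 3 lower in set B. Hnf4a, a nuclear receptor of tubule and liver cells, fell from 1492 ± 93.3 CPM to 575 ± 133 and 500.2 ± 204 (adjusted p = 1.09e-04 and 2.48e-05), and the retinoid X receptor gene Rxra also fell in both. Nfe2l2, which encodes NRF2, was at 16.7 ± 6.98, 26 ± 8.64 and 36.8 ± 8.28 CPM. It passed in set B (adjusted p = 0.0161), a call lost without control replicate 1 (0.0503) or set B replicate 3 (0.0624), and not in set A (adjusted p = 0.199).

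**Figure D5:**
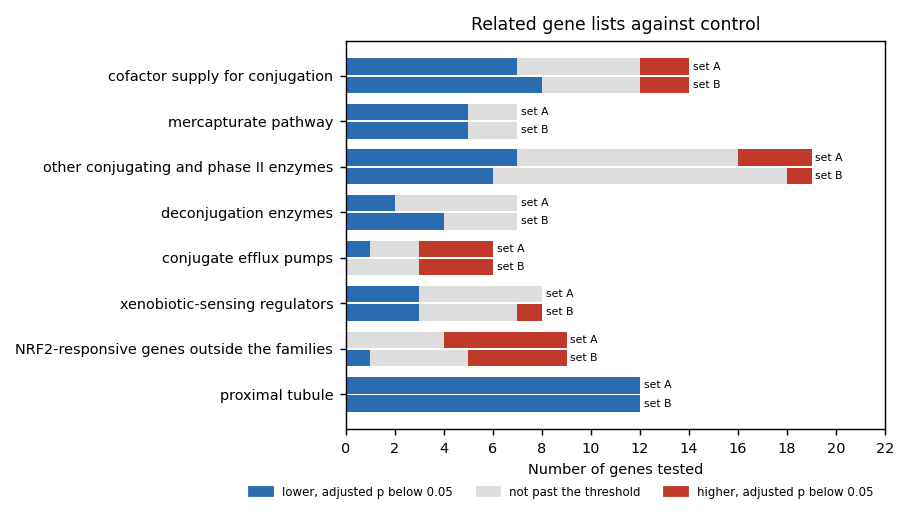
Number of genes tested (x axis) in each list of related genes and in the proximal tubule markers, with set A above set B and the parts that were lower (blue), higher (red) or not past the threshold (grey) against control. All 12 proximal tubule markers are lower in both sets, and the NRF2-responsive genes and the efflux pumps have 3 to 5 higher genes per set.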

How the data were processed

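Stranded mRNA libraries of 12 kidneys were read as single reads of 100 bases. According to the methods of the study and the submitters' processing notes, reads were mapped to mm10 with STAR and counted per gene with HTSeq; versions and the HTSeq strand and overlap settings are not given in the sources used here. The deposited values are raw counts, and 0 columns belonged to no sample.

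Counts were fitted with edgeR 4.0.16 (R 4.3.3) for all 12 kidneys together: filterByExpr (minimum count 10, minimum total 15), TMM factors (0.968 to 1.03) and quasi-likelihood F-tests, two-sided. All 39 members passed the filter, which their rule nearly repeats. Single values were compared by the exact permutation test, whose smallest p for 4 kidneys against 4 is 0.0286. The procedure was also run on simulated counts, but with less spread between kidneys than the real ones show. That run does not tell how well it performs on these data. Nothing in the labels says how mice were assigned or whether libraries were made together. No 2 libraries agreed within sampling noise (the smallest chi-square divided by its degrees of freedom was 49.1). Positions and exon lengths are from GENCODE M21 (mm10). RefSeq promoters (GRCm38.p6) matched 33 members.

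The 3 comparisons were tried under 17 alternatives: DESeq2 1.42.0, RLE size factors, no low-count filter, a block for the replicate number, a fit of the 2 compared groups alone, and each kidney left out. Full values are given for the leading member of each class, apart from the class of Aldh16a1 and Aldh18a1. They are also given for up to 5 of the largest rises and falls past the threshold against control and the 3 members with the smallest p between the sets. Further members were named after their values were seen, as were the list genes. The members, lists, motifs and rules were chosen with earlier results of these data known. The values of 1 listed regulator and of 2 of the 4 motifs searched are not reported here.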

Additional observations from a re-analysis of the deposited data

Results flagged for a closer look

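Of the 62 groups of 4 kidneys with any spread among the 21 members given in full, 6 held a kidney far from the other 3 by Dixon's test. For values with a common spread chance flags about 1 group in 20, but that rate does not apply here: in 5 of the 6 the other 3 kidneys were at exactly 0, where any value above 0 is flagged, and in the sixth they were near 0. Gsta1 was at 0.0386 CPM in control replicate 3 and at 0 in the other controls. Gstk1 was at 0.639 CPM in set A replicate 3 and at 1.31 CPM in set B replicate 3, with 0 in the others of each set. Gsto1 was at 3.28 CPM in control replicate 3, with 0 in the other controls, and at 1.77 CPM in set B replicate 2, with at most 0.0337 CPM in the others. Ugt1a6b was at 0.926 CPM in control replicate 3 and at 0 in the other controls. No pattern is read from these flags, and no cause was tested.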

How the results depend on the processing

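The number of members that fell was 8 to 11 for set A and 9 to 11 for set B over the 17 alternatives. The number that rose was less stable. It was 4 in each set, 5 in each in DESeq2, 2 in set B with only the 2 groups compared, and between 2 and 4 in both sets when 1 kidney was left out. The count of 2 was reached in set A without control replicates 3 or 4 or set A replicate 2, and in set B without control replicates 2, 3 or 4, set A replicate 3 or set B replicate 2. Between the sets it was 0 in each direction throughout. Of the 27 calls of members against control, 19 were kept in all alternatives, and the 8 that were lost in some belong to Aldh18a1 and Gsta2 in both sets, Ugt1a7c in both sets, Gstm7 in set B and Ugt2b34 in set A. Altogether 9 members were called in both sets in each alternative. Over the 1066 other values of the members given in full, 42 calls were lost, 6 were gained and 0 changed direction. Over 2231 values of the list genes, 59 calls were lost, 36 gained and 0 changed direction. The number of list genes that rose ranged from 9 to 13 in set A and from 8 to 13 in set B, and of those that fell from 21 to 27 and from 24 to 29.

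The replicate numbers do not pair the kidneys: samples of the same number deviated from their group means with correlations of -0.055 to 0.045 over 12 pairs. In 1 of these 12 pairs, set B replicate 4 with set A replicate 4, the same number gave the highest correlation. With the replicate number as a block, 3 members rose and 10 fell in set A, and 2 rose and 10 fell in set B. The block ended the calls of Aldh18a1 in both sets (adjusted p = 0.0616 and 0.0587 in edgeR) and of Gsta2 in set B (0.055), and Gstm1 passed with it in set A (0.0397).

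With a common biological coefficient of variation of 0.762 among kidneys of a group and 22 members at 0 in some kidney, changes of low members could not be seen well. Counting error alone limits a member at 0 to 0.0661 to 0.19 CPM per kidney (3 counts).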
